A study of Mus musculus with 2 samples.

Results

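KLF4 is a zinc-finger transcription factor that binds short GC-rich elements and can act as an activator or a repressor. The regions described here are called KLF4 peaks at some distance from annotated transcript starts. They are the 260 KLF4 peaks that the authors annotated as promoter at 1 to 2 kb or 2 to 3 kb from a transcription start site (TSS) of a protein-coding gene, out of 4216 peaks in all (6.17%, with a 95% exact interval of 5.46% to 6.94%, and this and all later intervals reflect counting error alone). They belonged to 244 genes. Fold, height and q-value played no part in choosing them. They came from chromatin immunoprecipitation (ChIP) of KLF4 in 1 library, called over 1 library of input DNA, so no value has a replicate error, no difference between sets of peaks was tested, and every share below describes this list of peaks.

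Both libraries came from primary hepatic portal fibroblasts of Clec3bCreERT2;R26tdT mice, in which a tamoxifen-dependent Cre driven from Clec3b switches on the red reporter used for sorting. Both also carried lentiviral Klf4 overexpression, so that the extra KLF4 was shared by the ChIP and its input and no comparison with cells at their own KLF4 level was made. Portal fibroblasts surround the portal tracts of the liver and can turn into myofibroblasts, the contractile, matrix-depositing cells of scar tissue, and the study's title places KLF4 and periostin in that activation. A peak list bears on binding and not on expression, so the labelled cell type could not be checked with it. Of 17 portal fibroblast markers and 14 hepatic stellate cell markers, 0 and 0 had a peak at 1 to 3 kb (upper limits of the exact intervals 19.5% and 23.2%). The share was 1.03% over the protein-coding genes of the RefSeq gene table, so 0 in lists this short says little. At any position, too, 0 and 0 of these markers had a peak.

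A region at 1 to 3 kb from a TSS is too far to be the core promoter, where RNA polymerase assembles. Such flanking DNA can hold proximal regulatory elements upstream of a gene, and downstream of the TSS it usually lies in the first exon and intron of the transcript. The distance is always to the start of 1 transcript, and a gene can have several. The KLF family recognises CACCC, or GGGTG on the other strand, and longer forms such as CCNCACCC, while the related GC box reads GGGCGG. Each CCNCACCC contains a CACCC, so these counts overlap.

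Sequence under the peaks was not analysed here, but RefSeq promoter windows of the older build GRCm38.p6 were at hand for 181 of the 244 genes. They show the 250 bases just before RefSeq gene starts, not the peaks, and their coordinates cannot be set beside the GRCm39 positions used elsewhere in the text. Printed here are both windows of Postn, which encodes the matricellular protein periostin named in the study's title, the window of Wnt10b, a Wnt ligand gene with peaks on both sides of its starts, and that of Hdgfl2, which had the highest fold among the 260 peaks. CACCC and GGGTG are in capitals, and each run reads 5′ to 3′ on the gene's strand.
Postn window 1, GRCm38.p6 chr3:54359017-54359266, plus strand: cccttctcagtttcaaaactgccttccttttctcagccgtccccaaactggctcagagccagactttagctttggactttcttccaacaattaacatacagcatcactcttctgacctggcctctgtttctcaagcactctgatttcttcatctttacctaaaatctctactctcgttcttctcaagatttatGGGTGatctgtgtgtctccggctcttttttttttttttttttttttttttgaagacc
Postn window 2, GRCm38.p6 chr3:54360857-54361106, plus strand: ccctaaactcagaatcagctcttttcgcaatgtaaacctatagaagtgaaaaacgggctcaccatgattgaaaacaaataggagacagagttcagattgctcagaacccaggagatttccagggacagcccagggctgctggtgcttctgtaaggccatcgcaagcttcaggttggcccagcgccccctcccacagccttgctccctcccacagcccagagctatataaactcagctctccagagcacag
Wnt10b window, GRCm38.p6 chr15:98778151-98778400, minus strand: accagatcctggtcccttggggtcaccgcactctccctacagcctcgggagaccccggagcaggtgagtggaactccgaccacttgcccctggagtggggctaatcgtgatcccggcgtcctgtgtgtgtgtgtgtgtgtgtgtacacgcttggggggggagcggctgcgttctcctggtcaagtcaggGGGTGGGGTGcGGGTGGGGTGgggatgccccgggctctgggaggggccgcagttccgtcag
Hdgfl2 window, GRCm38.p6 chr17:56079381-56079630, plus strand: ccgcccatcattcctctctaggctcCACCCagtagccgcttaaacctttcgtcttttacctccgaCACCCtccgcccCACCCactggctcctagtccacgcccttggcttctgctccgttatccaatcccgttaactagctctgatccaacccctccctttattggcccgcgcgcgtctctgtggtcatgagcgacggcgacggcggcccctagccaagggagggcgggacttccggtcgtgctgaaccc
Postn had 1 CACCC in its first window and 0 in its second. The Wnt10b window had 4, close together and each within a CCNCACCC, and the Hdgfl2 window had 3 together with 3 GC boxes. CACCC was found on either strand in 60.7% of the 242 windows of genes with a peak at 1 to 3 kb, in 60.8% of the 309 windows of genes with a peak up to 1 kb, and in 54.2% of the 21255 windows of all protein-coding genes. CCNCACCC was found in 19.4%, 19.7% and 16.3% of the same windows and GGGCGG in 48.3%, 52.4% and 42.6%. These matches are letters in a window and say nothing about the bases bound.

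The peaks lay almost evenly on the 2 sides of the TSS. Upstream were 128 peaks (49.2%, exact interval 43.0% to 55.5%) and downstream 132. The nearer band of 1 to 2 kb held 143 peaks, 72 upstream and 71 downstream, and the band of 2 to 3 kb held 117, with 56 upstream and 61 downstream. Among coding promoter peaks up to 1 kb that did not overlap the TSS, 130 of 219 were upstream (59.4%, 52.5% to 65.9%). Among peaks at 1 to 3 kb from other kinds of genes, 76 of 183 were upstream (41.5%, 34.3% to 49.0%). The interval of the 260 peaks overlapped both of these.

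**Figure D1:**
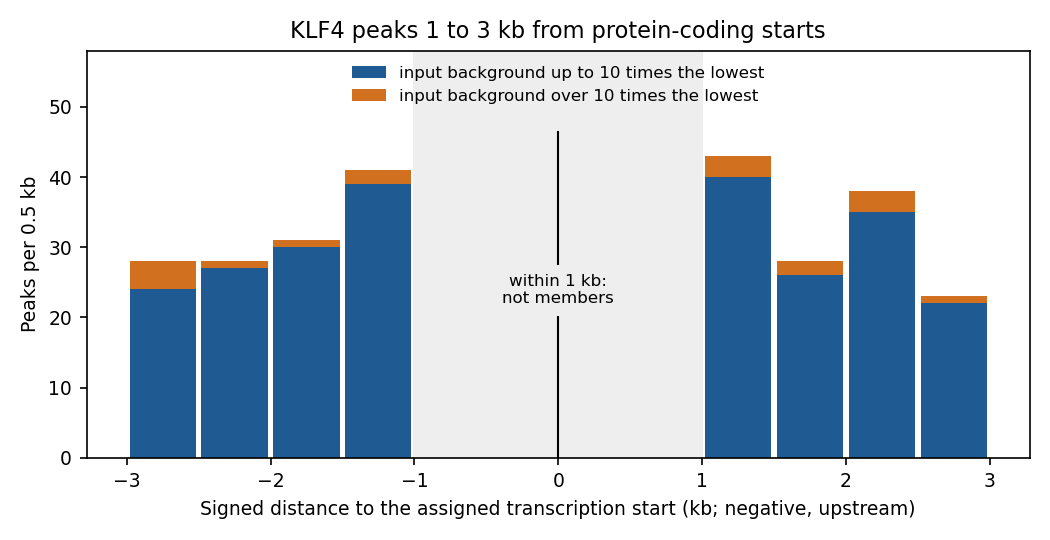
Number of KLF4 peaks per 0.5 kb of signed distance to the assigned protein-coding start, upstream negative, with peaks in high input background (over 10 times the lowest) stacked on top. The bins nearest the start were the fullest on each side, with 41 peaks upstream and 43 downstream, and the outermost held 28 and 23.

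Upstream, the number per 500 bp was 41 at 1000 to 1500 bp and 31, 28 and 28 in the next bins outward. Downstream it was 43, then 28, 38 and 23. Just inside the inner limit, A030003K21Rik at 1024 bp downstream had a fold of 4.59 and Dusp3, a dual-specificity phosphatase gene, at 1028 bp upstream had 4.54, while just outside it Ipo5, an importin gene, at 999 bp had 4.51. At the outer limit, Fam117b at 2989 bp downstream had 5.28 and Ptprb at 2988 bp upstream had 6.12, while Rap2c at 3015 bp had 4.59 and carried another annotation.

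The assigned transcript shaped what "upstream" and "downstream" meant. Of the 132 downstream peaks, 104 lay wholly inside the transcript (78.8%, exact interval 70.8% to 85.4%), 1 crossed its end, and 27 lay beyond its end (20.5%, 13.9% to 28.3%). Of these 27, 24 were assigned to transcripts under 2 kb long. The peak of Gapdh, a glycolytic enzyme gene, lay 1104 bp from the start of a transcript of 675 bp and so 430 bp past its end. The peak of Ikbkb, the kinase that releases NF-κB, lay 446 bp past the end of a transcript of 1375 bp. Over all 260 peaks, 45 were assigned to a transcript under 2 kb (17.3%), against 32 of the 283 coding promoter peaks up to 1 kb (11.3%) and 117 of the 183 peaks at 1 to 3 kb from other genes (63.9%). By side, these were 19 of the 128 upstream peaks (14.8%) and 26 of the 132 downstream peaks (19.7%), so "upstream" too can mean before a short transcript. Whether the assigned transcripts, short or long, start where the main promoter of the gene lies was not checked.

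Most of these peaks rested on few fragments. From the authors' fold and p-value, the ChIP fragment number at the summit came out as 5 at 98 peaks and as 6 at 96, together 74.6% (exact interval 68.9% to 79.8%), against 75.3% of all peaks. Folds over input ran between 1.95 and 9.18, with a median of 4.59 and quartiles of 4.54 and 4.91, and the depth of sequencing is unknown here. The 260 peaks took only 85 different folds, and 104 of them (40.0%) had 1 of the 2 most common values. These were 4.59, from 5 fragments at the lowest background of the list (66 peaks), and 4.54, from 6 fragments against a background of 0.542 fragments (38 peaks). Ranks within such ties carry no order.

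A q-value under 0.01 was reached by 51 of the 260 peaks (19.6%, exact interval 15.0% to 25.0%), beside 17.4% of all peaks. Among coding promoter peaks up to 1 kb it was 62 of 283 (21.9%, 17.2% to 27.2%). A q-value under 1e-05 was reached by 8 (3.08%), beside 2.73% of all peaks, and 6 of the 8 lay in the stretch of chromosome 10 described further on. Without peaks in high input background, 40 of 243 had a q under 0.01 (16.5%), against 53 of 271 up to 1 kb (19.6%) and 602 of 4014 among all peaks (15.0%). By side, a q under 0.01 was seen at 30 of 128 upstream peaks (23.4%, 16.4% to 31.7%) and 21 of 132 downstream peaks (15.9%, 10.1% to 23.3%). In low background these were 25 of 120 (20.8%) and 15 of 123 (12.2%). The intervals overlapped, and the difference between the sides was not tested. Median width was 203 bp, against 231 bp up to 1 kb and 201 bp over all peaks, and 19 of the 260 peaks were 500 bp wide or more.

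**Figure D2:**
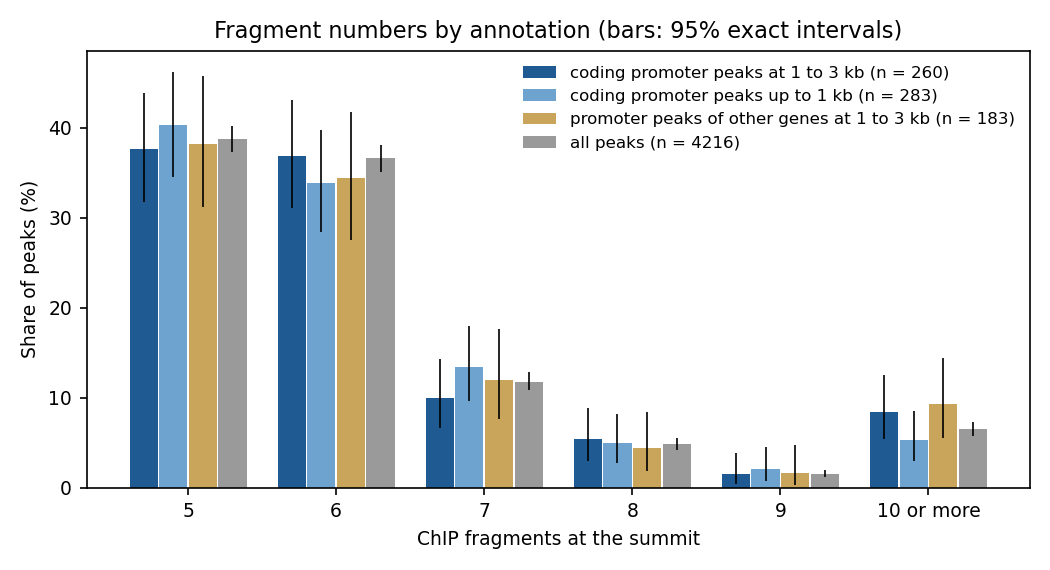
Share of peaks (%) by number of ChIP fragments at the summit for the 260 coding promoter peaks at 1 to 3 kb, the 283 up to 1 kb, the 183 at 1 to 3 kb from other genes and all 4216 peaks; error bars are 95% exact intervals. In each set the bars for 5 and 6 fragments stand far above the rest, and at each fragment number the intervals of the sets overlap.

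Upstream of the TSS, the highest fold belonged to S100a14, a calcium-binding protein gene of the S100 family. Its peak covered chromosome 3 from 90432723 to 90433073 on GRCm39, 1090 bp before the start, with a fold of 9.03, a q of 9.32e-10 and 13 ChIP fragments against a background of 0.551. Slc16a11, a monocarboxylate transporter gene, followed with a fold of 6.89 from 10 fragments at 1904 bp. Fdxr, whose product passes electrons to mitochondrial cytochrome P450 enzymes, had 6.88 from 8 fragments at 2615 bp, and the membrane protein gene Tmem139 had 6.88 from 9 at 2213 bp. These peaks had backgrounds of at most 1.94 times the lowest of the list, so their folds rested on fragment numbers well above the usual 5 or 6.

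Rgmb, a co-receptor gene of BMP signalling, had an upstream peak with a fold of 6.49 from 9 fragments, 1868 bp before its start. Garin1b, which encodes a Golgi-associated partner of RAB2, had 6.34 from 9 fragments. Ptprb, the receptor tyrosine phosphatase of vascular endothelium, had 6.12 from 7 fragments in a peak of 706 bp, the widest upstream peak. The neural adhesion gene Cntn5 had 5.84 and the ankyrin repeat gene Abtb3 5.80, each from 8 fragments. Caldesmon, the actin-binding product of Cald1, closed this group at 5.62 from 9 fragments, 1614 bp before the start of a transcript of 9946 bp.

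Downstream, Hdgfl2, a chromatin-binding gene of the HDGF family, stood first with a fold of 9.18, a q of 6.67e-10 and 11 fragments at the lowest background. Its peak was also the widest of the 260, at 1841 bp (chromosome 17, 56409403 to 56411243). It lay 2841 bp from the start of a transcript of 1046 bp and 1796 bp past that transcript's end. A second Hdgfl2 peak, over the TSS of another transcript 22722 bp away, had a fold of 9.71. Pik3r1, the regulatory subunit gene of PI 3-kinase, had 6.89 from 10 fragments at 2276 bp, 68 bp past the end of a transcript of 2209 bp.

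Ccl2, which encodes the monocyte chemoattractant, had a downstream peak with a fold of 6.23 and a q of 0.000290 from 8 fragments. It spanned 852 bp of chromosome 11 (81928052 to 81928903), began 1616 bp into the gene and was the 1 peak that crossed the end of its transcript, which is 1841 bp long. Sash1, a scaffold gene, had 6.12 from 7 fragments inside its transcript. The iron storage gene Fth1 had a peak of 858 bp with a fold of 5.64 from 8 fragments at 1241 bp, and a second of 5.17 from 6 fragments at 2358 bp, both past the end of a transcript of 947 bp. From the sixth place on, the downstream genes were tied at 5.35 from 6 fragments at the lowest background, a value shared by 13 of the 260 peaks. The first 5 by symbol were Apol7a of the apolipoprotein L family, Gapdh, the cytohesin partner Ipcef1, the inflammasome sensor Naip2 and the Polycomb RING gene Pcgf5, and Wnt10b had the same value.

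**Figure D3:**
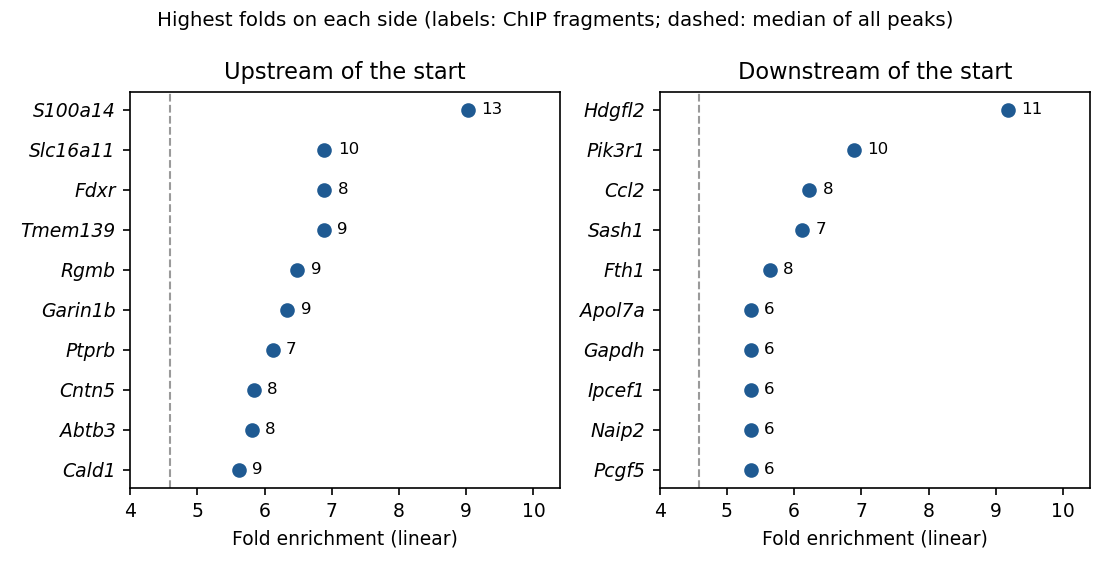
Fold enrichment over input (linear axis) of 10 genes with the highest folds upstream (left) and downstream (right), outside the chromosome 10 stretch, ties cut by symbol, with the number of ChIP fragments beside each point and the median of all peaks, 4.59, as a dashed line. S100a14 at 9.03 and Hdgfl2 at 9.18 stand apart from the next values of 6.89 on each side, and the last 5 downstream genes share 5.35 with Wnt10b, which is not drawn.

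Few genes carried more than 1 of these peaks. The whole list held 4216 peaks at 3648 genes, so most genes had a single peak there too. Of the 244 genes, 234 had a single one and 10 had 2 or more. Outside the chromosome 10 stretch these were Fth1, Mtmr6, Cped1, Wnt10b, Wdr43 and Arhgap12, with 2 each. The gap between the 2 peaks was 191 bp at the phosphatase gene Mtmr6 (folds 4.48 and 4.43), 259 bp at Fth1 and 301 bp at Cped1, where the folds were 4.59 and 5.35 upstream of a shared start. At Wdr43, a gene for ribosome assembly, 2 peaks of 268 bp lay on opposite sides of a transcript of 883 bp, with folds of 4.51 downstream and 4.45 upstream. The 2 peaks of Arhgap12, a GTPase-activating protein gene, were 65110 bp apart and belonged to different transcripts.

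At Wnt10b, the downstream peak was 746 bp wide (chromosome 15, 98672589 to 98673334), with a fold of 5.35 and a q of 0.00523. The upstream peak, assigned to the start of a longer transcript, was 168 bp wide with a fold of 4.42 and a q of 0.0484. Each lay at 1 to 2 kb from its own start, and 4470 bp separated them.

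Further peaks elsewhere were assigned to 28 of the 244 genes (11.5%), and 10 of the 28 had a promoter peak up to 1 kb as well. Among these were Rbpj, the DNA-binding effector of Notch signalling, and Spen, a co-repressor known to act with RBPJ. Rbpj had 4.54 at 2255 bp upstream and 5.61 at a second peak 50736 bp away. Spen had 4.59 at 2790 bp upstream and 6.06 at a second peak 47826 bp away. Akap13, an A-kinase anchor gene, had 5.30 and 5.37. Cald1 had 4.97 at its second peak, 3650 bp away. Igfbp2, an insulin-like growth factor binding protein gene, had 4.59 at both of its peaks, 26733 bp apart. In each of these genes the second peak was assigned to another transcript start than the first. The rest of the 10 were Hdgfl2 and 4 genes of the chromosome 10 stretch. The share of genes with further peaks was not computed for other sets of peaks.

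The stretch of chromosome 10 from 116987721 to 117626313, where input itself was high, held 16 of the 260 peaks (6.15%) and 109 of all 4216 (2.59%). Input-derived background over 10 times the lowest in the list was found at 17 of the 260 peaks (6.54%, exact interval 3.85% to 10.3%), beside 4.79% of all peaks, and 16 of the 17 were these. The other was Sfi1, a spindle gene on chromosome 11, at 33.5 times. The median fold in the stretch was 2.26 (range 1.95 to 4.49) and the median fragment number 53, against 4.59 and 6 for the 244 peaks outside it. A q under 0.01 was seen at 11 of the 16 (68.8%), against 40 of the 244 peaks outside (16.4%). Over all 109 peaks of the stretch the median fold was 2.45, the median fragment number 48 and the median q 0.00286. Low folds, many fragments and low q-values were thus not particular to the 16. How far the high input shaped these values was not tested.

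Cpm, a membrane carboxypeptidase gene, accounted for 5 of the 16 peaks, with folds from 2.21 to 2.82 and up to 108 fragments. Cpsf6, a subunit gene of the pre-mRNA cleavage complex, had 3 peaks with folds of 4.49, 3.18 and 2.22, each from 47 fragments, on backgrounds of 31.5, 45.8 and 67.0 times the lowest. Mdm2, which encodes the ubiquitin ligase that restrains p53, had 3 with folds of 3.11, 2.16 and 2.10, and the nuclear pore gene Nup107 had 3 from 1.95 to 2.30. The lysozyme gene Lyz1 had 3.16 and the transporter gene Slc35e3 1.96. Nearby, the chaperonin gene Cct2 lay 86.6 kb outside the stretch and had a fold of 4.54 at 1.76 times the lowest background.

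**Figure D4:**
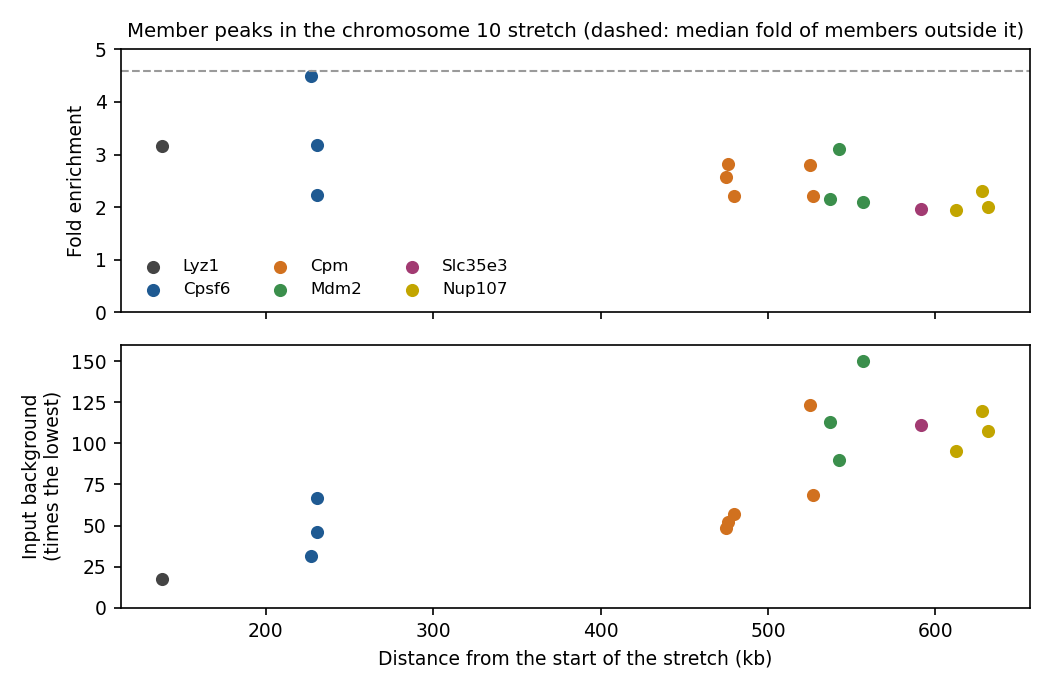
Fold enrichment (top) and input-derived background in multiples of the lowest in the list (bottom) of the 16 peaks inside the chromosome 10 stretch, by distance from its start in kb, coloured by gene. All 16 lie below the dashed median fold of 4.59 of the other 244 peaks, and their background runs from 17.3 times at Lyz1 to 150 times at Mdm2.

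**Figure D5:**
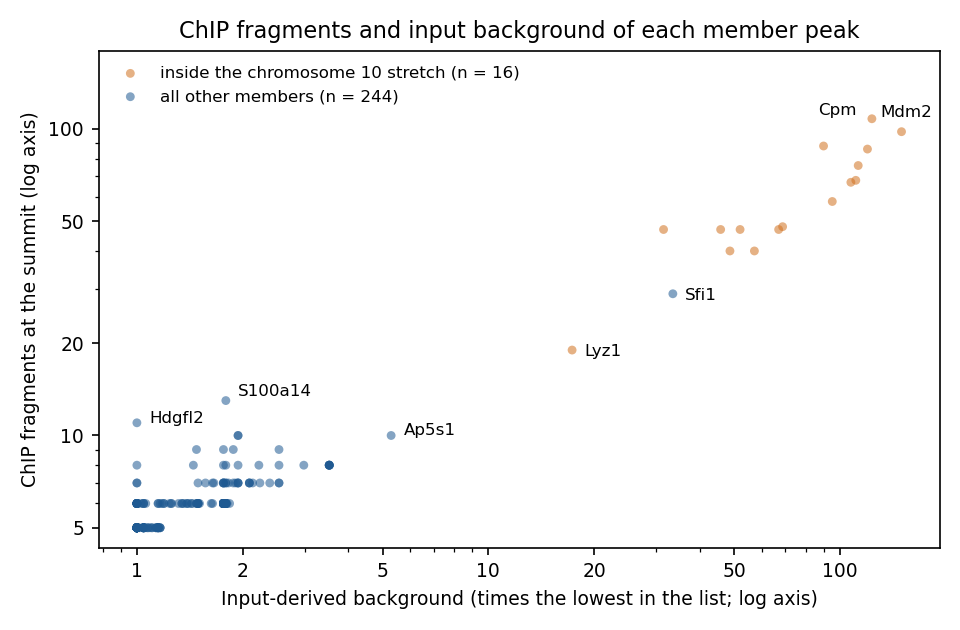
ChIP fragments at the summit against input-derived background in multiples of the lowest in the list, both on log axes, for each of the 260 peaks. The 16 peaks of the chromosome 10 stretch and Sfi1 lie apart at upper right, and S100a14 and Hdgfl2 have the most fragments among peaks with a background below 2 times the lowest.

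Genes linked to fibroblast activation, with cell type markers and control genes, were read from 20 lists. Of their 353 genes, 8 had a peak at 1 to 3 kb (2.27%, exact interval 0.983% to 4.42%), beside 1.03% of the 21900 protein-coding genes of the RefSeq gene table, where 225 of the 244 genes were matched by symbol. A peak at any position was found at 45 of the 353 (12.7%). In all, 1586 protein-coding genes had one, beside the 21900 protein-coding genes of the RefSeq table. How many of the 1586 match that table by symbol was not counted, so no share is set beside the 12.7%. The lists were drawn up with earlier results of these data known, so these shares are not independent evidence. Myofibroblast and contractile genes gave 1 of 20, Cald1. Extracellular matrix genes gave 1 of 28, Postn, integrin and adhesion genes 1 of 20, Itgb5, Hippo genes 1 of 18, Nf2, and inflammatory genes 1 of 20, Ccl2. Cell cycle and p53 genes gave 2 of 21, the replication helicase gene Mcm5 and Mdm2, and housekeeping genes 1 of 14, Gapdh. The TGF-β and BMP, matrix turnover, KLF and SP, immediate early, growth factor receptor and Wnt, Hedgehog and Notch lists gave 0, as did the pluripotency list and every list of liver cell types (portal fibroblast, hepatic stellate, hepatocyte, cholangiocyte, endothelial and macrophage). Upper limits of the exact intervals were 11.6% for TGF-β and BMP and 15.4% for Wnt, Hedgehog and Notch. These lists are short: Wnt10b, Axin1, Rbpj, Spen and Rgmb, which had peaks at 1 to 3 kb, were on none of the 20.

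Periostin's peak (chromosome 3, 54294950 to 54295134) had a fold of 4.54 from 6 fragments and a q of 0.0484, the highest value among the 260. It lay 1176 bp upstream of an assigned transcript of 1505 bp. The peak was 1 of the 38 with exactly that fold and q, and 189 of the 260 (72.7%) had a lower q. Itgb5, the integrin β5 chain gene, had 4.59 from 5 fragments at 1859 bp upstream of a transcript of 2622 bp. Nf2, which encodes the Hippo regulator merlin, had 4.53 from 5 fragments at 1241 bp upstream. All of these q-values were above 0.01, while Cald1, with 0.00178, was below it. Whether the transcripts assigned to these genes, Postn and Cald1 among them, start at the main promoter of the gene was not checked.

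The authors' table also gave Gene Ontology (GO) terms for 232 of the 244 genes and KEGG pathways for 103. Shares of the 244 genes are set beside those of the 275 genes with a coding promoter peak up to 1 kb and of the 1342 other coding genes with any peak (which include most of the 275), as values without a test. The terms were picked after the table had been read.

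Actin and adhesion terms covered few genes, while the broader GO term cytoskeleton covered 25 of the 244 (10.2%), against 9.45% and 8.12%. GO focal adhesion covered 7 (2.87%), against 3.64% and 2.68%. GO actin binding was given to 6 of the 244 genes (2.46%), against 2.55% and 2.46%. They were Cald1, the Arp2/3 subunit Arpc1a (4.54), the formin Daam1 (4.54), the focal adhesion adaptor Lasp1 (4.59), Map1a (4.59) and Nf2. KEGG regulation of actin cytoskeleton held 6 genes (2.46%), against 0.727% and 1.27%. They included Arpc1a, Itgb5, the myosin regulatory light chain gene Myl12b (4.59), Pik3r1 and the phosphatase gene Ppp1ca (4.59). The peak of Myl12b lay at 2389 bp inside its transcript. GO cell adhesion, with 7 genes (2.87%), stood against 2.55% and 4.32%, and extracellular region, with 16 genes (6.56%), against 5.09% and 8.94%.

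Small GTPases are switches that steer actin and vesicle traffic. GO guanyl-nucleotide exchange factor activity was given to 6 genes (2.46%, against 1.45% and 1.19%), namely Akap13 (5.30), Cyth3 (4.67), Bcar3 (4.59), Arhgef33 (4.54), Mcf2l (4.51) and Trio (4.32). GTPase activity was given to 6 (2.46%, against 1.09% and 1.12%), including the vesicle GTPase genes Rab18 (5.01), Rab13 (4.59) and Rab29 (4.54). GTPase activator activity was given to 6 (2.46%, against 2.18% and 1.79%), including Arhgap12 and Arhgap44 (4.59). Phosphoprotein phosphatases also numbered 6 (2.46%, against 0.364% and 0.745%). These were Ptprb at 6.12, and Ppp1ca, Dusp3, the calcineurin subunit Ppp3r1, the mitotic phosphatase Cdc25c and Ppm1l between 4.43 and 4.59.

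Signalling from TNF and the death receptors was represented by Tradd, the adaptor of the TNF receptor, with a fold of 4.59 at 2095 bp downstream, Ikbkb (4.51), Pik3r1 and Ccl2, among others. The KEGG TNF pathway held 5 genes, or 2.05% of the 244, against 0 of 275 genes with a peak up to 1 kb (upper limit 1.33%) and 1.19% of the others. KEGG apoptosis held 6 genes (2.46%, against 0.364% and 0.596%), with Capn2, a calpain gene, at 5.32. KEGG Wnt signalling held 5 (2.05%, against 0.727% and 0.894%), namely Wnt10b, the scaffold gene Axin1 (4.51), Daam1, Ppp3r1 and the kinase gene Camk2d (4.43). KEGG cellular senescence held 7 (2.87%, against 1.45% and 0.745%), of which Mdm2 lay in the chromosome 10 stretch. Several of these genes, Pik3r1 among them, stand in more than 1 pathway.

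Metabolic genes included a group for fatty acid handling. KEGG fatty acid metabolism held 4 genes (1.64%, against 0.364% and 0.298%). They were Acsl1, which activates long-chain fatty acids (5.48), the desaturase gene Scd3 (4.91), Acaca, the acetyl-CoA carboxylase of fatty acid synthesis (4.81), and Acsbg1 (4.51). GO lipid metabolic process held 10 (4.10%, against 2.18% and 2.16%) and mitochondrion 21 (8.61%, against 9.09% and 7.30%), among which Fdxr and Fth1 had the highest folds. Genes of drug and xenobiotic handling, named after their values were seen, were Cyp3a13 (5.07), Ugt2b36 (5.35) and Gsto1 (5.19).

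GO regulation of transcription was given to 20 of the 244 genes (8.20%), against 14.5% of genes with a peak up to 1 kb and 10.5% of the others. They included the homeobox genes Hoxa10 (5.30) and Irx6 (4.59), the oestrogen receptor gene Esr1 (4.59), the nuclear respiratory factor gene Nrf1 (4.49), and the histone deacetylase genes Hdac4 and Hdac7 (4.54 each). Zinc finger genes named Zfp, Zkscan, Zscan or Zbtb had 0 of the 260 peaks (upper limit of the exact interval 1.41%), while 24 of all other coding peaks (1.50%) and 2.12% of the table's genes were theirs. Of nucleolar genes there were 14 (5.74%, against 6.55% and 3.35%), including Npm1, the nucleolar chaperone nucleophosmin (5.40), and the ribosome assembly genes Utp20 (5.35) and Utp6 (4.59).

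By symbol, olfactory receptor genes had 10 of the 260 peaks (3.85%), against 1.06% of coding promoter peaks up to 1 kb and 1.75% of all other coding peaks, while 5.07% of the protein-coding genes of the RefSeq table belong to this family. Their folds ran from 4.45 to 5.35, and 5 lay on each side. Solute carriers had 9 peaks (3.46%, against 0.707% and 2.01% of those peaks and 1.78% of the table's genes), with Slc16a11 highest at 6.89 and Slc35e3 lowest at 1.96 in the chromosome 10 stretch. Histone genes had 1, H4c6, with a fold of 4.80 at 1768 bp from the start of a transcript of 391 bp and so 1378 bp past its end. That was 0.385% of the 260 peaks, against 0.707% of peaks up to 1 kb, 0.251% of all other coding peaks and 0.644% of the table's genes. Ribosomal protein genes had 0 (upper limit 1.41%), against 1.06%, 0.439% and 0.457%.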

How the data were processed

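The deposited peak list of 1 KLF4 ChIP library called against 1 input library was used. Per the submitters' processing notes, the tools included MACS2 2.2.7.1, ChIPseeker 1.44.0, Bowtie2 2.4.2 and fastp 0.24.0, with no order given, on the build GRCm39. Per the file headers, the authors gave for each peak a fold enrichment (a ratio of ChIP to input), −log10 of the p-value and of the q-value, the p-value and q-value themselves, and the assigned transcript with its distance. The distance was checked to run from the nearer peak edge at all 260 peaks. The list holds no library totals, and 0 columns of per-sample values were left out.

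ChIP fragment number and input-derived background were recovered by solving the fold, (fragments + 1)/(background + 1), together with the Poisson p-value. All 4216 peaks fitted within 0.001 of the deposited −log10 p, and the step was tested on simulated data. High background means over 10 times the lowest, 0.307 fragments. Shares carry 95% Clopper-Pearson intervals for counting error. With 1 library a group no test was made. Distances, peak strength, gene lists and terms were compared as values, under other bands, q limits, background limits and distance measures.

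Named genes were Postn, the 10 highest folds on each side outside the chromosome 10 stretch (ties cut by symbol), every gene in that stretch, with 2 or more of the peaks, or on a gene list, and the peaks nearest the distance limits. Genes under GO and KEGG terms were named in addition, after their values were seen. The peaks, lists and terms were chosen with earlier results of these data known. Gene names and promoter windows came from RefSeq tables of GRCm38.p6, of which no position was compared with the peaks. Python 3.11.15, pandas 2.3.3, scipy 1.17.1 and matplotlib 3.10.9 were used. Some items are not reported here.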

Additional observations from a re-analysis of the deposited data

How the results depend on the processing

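The 1 to 2 kb band alone held 143 peaks and the 2 to 3 kb band alone 117, with 1 gene of the lists in the outer band. With a q-value under 0.01, 51 peaks remained, 58.8% of them upstream, with a median fold of 5.35, 21.6% in high background, 61.9% of the downstream ones inside the transcript and 4 genes of the lists. With a q-value under 1e-05, 8 peaks remained, 37.5% of them upstream, with a median fold of 3.14, 75.0% in high background, 60.0% inside the transcript and 1 gene of the lists. Fewer peaks enter by construction, and the cause of the other shifts was not tested. Without the chromosome 10 stretch the share in high background was 0.410%, and with 1 peak a gene it was 2.87%. In place of the fold, the median fragment number was 6 and the median −log10 q was 1.32, which are other units. Counting peaks from 0 to 3 kb gave 18 genes of the lists. The other 39 recomputed values, the distance to the peak centre among them, stayed inside the main value's 95% interval or within 1.5 times the main count. Distances to the summit or to the start of the whole gene and motifs under the peaks were not run, since no summit, gene table or genome of the same build was used. No paired analysis was possible because each group had 1 library and no test was made. At 5 or 6 fragments a peak, 1 fragment moves the fold past most differences between peaks, so folds near 4.59 cannot be ranked.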

Other observations

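The peaks were spread unevenly over the chromosomes. Chromosome 11 held 30 of them, 13.2% of its 227 peaks, chromosome 17 held 20 (11.0% of 181) and chromosome 19 held 15 (10.8% of 139), while chromosome 2 held 8 (2.29% of 350) and the X chromosome 1 (1.30% of 77). Gene number per chromosome was not taken into account. Chromosome 10 held 32, of which 16 lay outside its high-input stretch.

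Further deposited terms, some of whose genes are described above, gave these shares of the 244 genes. GO microtubule was given to 9 genes (3.69%), against 2.18% of genes with a coding promoter peak up to 1 kb and 2.09% of other coding genes with a peak, and 7 of the 9 peaks were upstream. GO inflammatory response was given to 8 genes (3.28%, against 1.45% and 1.94%), with 6 of the 8 peaks downstream. Over all 260 peaks the sides were near even, with 49.2% upstream. GO positive regulation of cell proliferation was given to 10 genes (4.10%, against 0.727% and 2.01%), among them Enpp2, which encodes autotaxin, and Lifr, the receptor of leukaemia inhibitory factor. These terms were picked after their values were seen and were not tested.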
